A study of Mus musculus with 64 samples.

Results

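Gonadal fat mRNA was compared between 3 male mice that express human AS3MT and 2 male mice that express the mouse ortholog. These 5 libraries belong to a series of 64 samples of liver and gonadal fat, and they were matched to the columns of the adipose table by the library name that each sample description carries. All of the mice, in both genotypes, were on the 129S6/SvEvTac background and took inorganic arsenic (iAs) at 400 ppb in drinking water for 4 weeks, so no group without arsenic entered the comparison. The human-ortholog males are called humanized males here (replicates 4, 5 and 6), and the mouse-ortholog males are called WT males (replicates 4 and 5). The 3 humanized female and 3 WT female fat libraries were treated alike and were used to estimate the spread and to test whether the male difference differed from the female one. The labels give no age and do not say whether fat from several animals was pooled.

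As background, arsenic (III) methyltransferase, encoded by As3mt, transfers methyl groups from S-adenosylmethionine to inorganic arsenic, which turns it into methylated forms that are excreted in urine. Mice methylate arsenic faster than people do, and in the published humanized line a mouse stretch that holds Borcs7 and As3mt was replaced by the matching human stretch. Gonadal fat is a visceral depot of white adipocytes that store triglyceride and release leptin and adiponectin, set among endothelium, macrophages, fibroblasts and a mesothelial surface. The comparison asks which fat genes differ between male mice that carry the human and the mouse enzyme under the same arsenic exposure.

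Values are normalized read counts, called signal here, and a difference is humanized minus WT on the log2(signal + 1) scale, which understates the change of low genes. Total signal ran from 83100312 to 90417259 over the 11 fat libraries, and since the values were already scaled, sequencing depth is unknown. The adipokine genes Adipoq and Lep were high in every male library, at 116720.1 or more and at 45002 or more, so the tissue label held. Some libraries stood apart. WT male replicate 5 carried signal of the liver plasma protein gene Alb of 129199.9, against 598 to 12598 in the other 10 fat libraries, and a haemoglobin and red cell gene sum of 2160121.7. Humanized male replicate 4 had the lowest Adipoq signal (116720.1) and the highest Lep signal (243452) of the 11. Xist was at 22.3 or less in the males and at 56944 or more in the females, while WT female replicate 5 held a trace of the Y-linked Ddx3y (220.1, against 7397 to 8434 in males). Because the WT males were so few and so unlike in liver-type RNA, genes are described below by whether they held against each WT male library taken alone.

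As3mt and Borcs7 fell in humanized males. As3mt signal was 1647 and 1218 in WT males and 2.79, 2.01 and 3.93 in humanized males. Borcs7, which encodes a subunit of the BORC complex that positions lysosomes, was at 1507 and 994 in WT males and at 20.5, 17.1 and 15.8 in humanized males. In both genes the groups were far apart, and every library matched its genotype label. The table lists mouse gene IDs, so these values measure the mouse genes and not the human ones. The As3mt difference was −8.53 ± 0.67 (SE, limma adjusted p = 0.00244) and that of Borcs7 −6.04 ± 0.30 (limma adjusted p = 6.72e-05). With Rbp7, described next, these were the only calls among 17394 genes tested at a limma adjusted p under 0.05, so 0.0172% of genes were called and all 3 were lower. At an unadjusted limma p under 0.05 there were 1463 genes (8.41%), 718 higher (4.13%) and 745 lower (4.28%). Leaving out WT male replicate 4 gave 7 calls (3 higher), and leaving out WT male replicate 5 gave 8 (2 higher). As3mt missed the threshold when WT male replicate 5 and humanized male replicate 4 were both left out (limma adjusted p = 0.0984). For genes other than As3mt and Borcs7, a lower signal in bulk fat cannot be told apart from fewer cells of the type that makes the RNA.

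Next to these genes, the predicted gene model Gm6967 and the steroid hydroxylase gene Cyp17a1 held in the opposite direction in males, without reaching the threshold. In the RefSeq gene order of GRCm38.p6, Gm6967 lies between Cyp17a1 and Borcs7, and As3mt follows Borcs7. Gm6967 was at 1.00 and 0 in WT males and at 35.1, 74.1 and 60.4 in humanized males (limma adjusted p = 0.0624). Cyp17a1, whose enzyme leads to sex steroids in gonads and adrenal, was at 5.55 and 37.5 in WT males and at 147, 407 and 271 in humanized males (difference 4.00 ± 0.89, limma adjusted p = 0.277). Neither gene overlapped between genotypes in females either, with Cyp17a1 at 1.05, 4.69 and 11.6 in WT females and at 238, 373 and 402 in humanized females. Gm6967 was at 0, 0 and 1.93 in WT females and at 47.1, 67.7 and 91.8 in humanized females. Its female difference of 5.56 passed the threshold (limma adjusted p = 0.0368), as 1 of 3 genes called in females. That of Cyp17a1 did not (limma adjusted p = 0.118). Of 19 genes listed for this stretch of the chromosome, 9 lay above 0 and 10 below, with a median difference of −0.044 against 0.0086 over all genes. Cnnm2, the next gene after As3mt and a magnesium transport protein, differed by 0.02 ± 0.23, and its WT and humanized values overlapped (6836 and 5453, against 5739, 6454 and 6415).

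**Figure D1:**
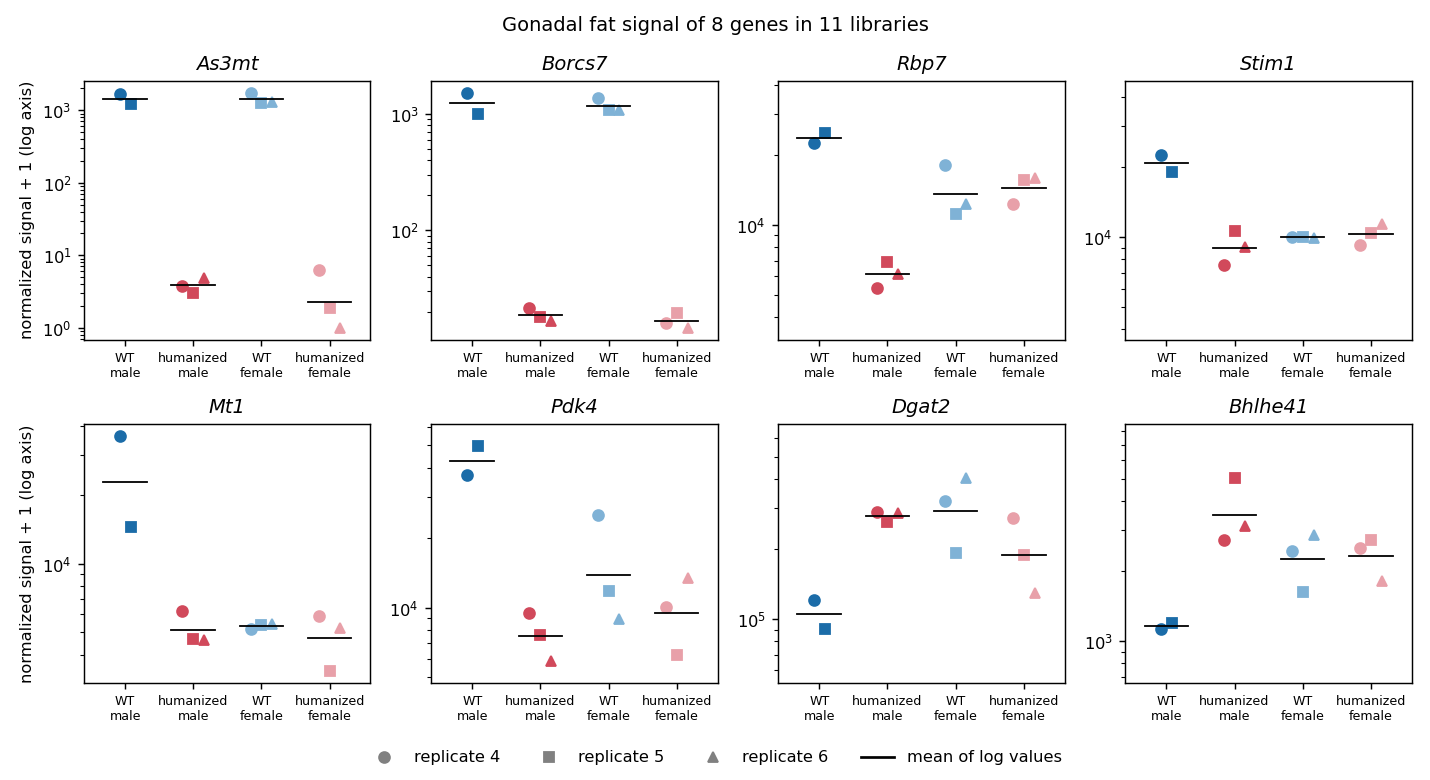
Normalized signal + 1 of 8 genes (log axis) in the 11 gonadal fat libraries, by genotype and sex. Each point is 1 library and each bar the mean of the log values. As3mt and Borcs7 are low in humanized mice of both sexes, whereas for Rbp7, Stim1, Mt1, Pdk4, Dgat2 and Bhlhe41 the WT males stand apart from the humanized males and the female groups overlap or lie close together.

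Rbp7 was the only called gene away from the As3mt locus. It encodes a cellular retinol-binding protein of fat, found mainly in its capillary endothelium, and is a known target of PPARG. Its signal was 22559 and 24948 in WT males and 5346, 6940.4 and 6161 in humanized males, so all 3 humanized males lay well below both WT males (difference −1.96 ± 0.21, limma adjusted p = 0.0261). In females the groups overlapped, at 18174, 11122 and 12283 in WT and at 12286, 15521 and 15871 in humanized mice (difference 0.10). The WT males were thus the highest and the humanized males the lowest of the 4 groups. Rbp7 kept a difference of −2.03 against WT male replicate 5 alone and of −1.88 against replicate 4 alone, where the limma adjusted p was 0.0702 and 0.107. The call was also lost without any 1 of humanized male replicates 4, 5 and 6, WT female replicate 6 or humanized female replicates 5 and 6. The limma adjusted p was then from 0.0559 to 0.107, while the difference stayed between −2.05 and −1.86. With the replicate number as a block the call was lost too. It was lost as well with males only (limma adjusted p = 0.0753), with the hepatocyte covariate (limma adjusted p = 0.0586) and with WT male replicate 5 and humanized male replicate 4 both out (limma adjusted p = 0.163).

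Other genes of the retinoid pathway lay on both sides of 0. Of 23 tested, 13 lay above 0 and 10 below, with a median of 0.071. Aldh1a1, the main retinaldehyde dehydrogenase of mature fat, was at 22742 and 21376 in WT males and 9632, 15253 and 13424 in humanized males (−0.81 ± 0.26, limma adjusted p = 0.432). WT and humanized males did not overlap, but the gene did not meet the rule for holding against each WT library. Of 18 endothelial markers, Rbp7 included, 5 lay above 0 and 13 below, with a median of −0.16 that was 0.088 against WT male replicate 4 alone. The summed endothelial signal was 1655271 and 1638583 in WT males against 1121406 to 1401047 in humanized males. The part of this lower sum in the Rbp7 result was not tested.

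Beyond the calls, 296 genes (1.7% of those tested) held against each WT male library, 145 higher (0.834%) and 151 lower (0.868%) in humanized males. To be counted, a gene needed an unadjusted limma p under 0.05 against both WT males and against each alone, in 1 direction, with all 3 humanized males on 1 side of both WT values. Groups that did not overlap were common on their own, at 23.3% of all genes. All but the 3 called genes among the 296 missed the adjusted threshold, so they are described by their values. With the hepatocyte marker level of each library as a covariate the count was 103 (51 higher), and with libraries weighted by their spread it was 471 (250 higher).

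Most of these genes set the WT males apart from every other fat library. Of the 151 lower genes, 120 (79.5%) had both WT males above all 9 other libraries, females included, against 3.67% of all genes, and 17 (11.3%) had the 3 humanized males below all 8 others, against 0.937%. Of the 145 higher genes, 83 (57.2%) had both WT males below the other 9, against 2.94% of all genes, and 34 (23.4%) had the humanized males above the other 8, against 0.989%. The male values chose these genes, so these shares describe them and support nothing further. The female difference had the same sign in 76 of the 151 (50.3%) and in 78 of the 145 (53.8%).

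**Figure D2:**
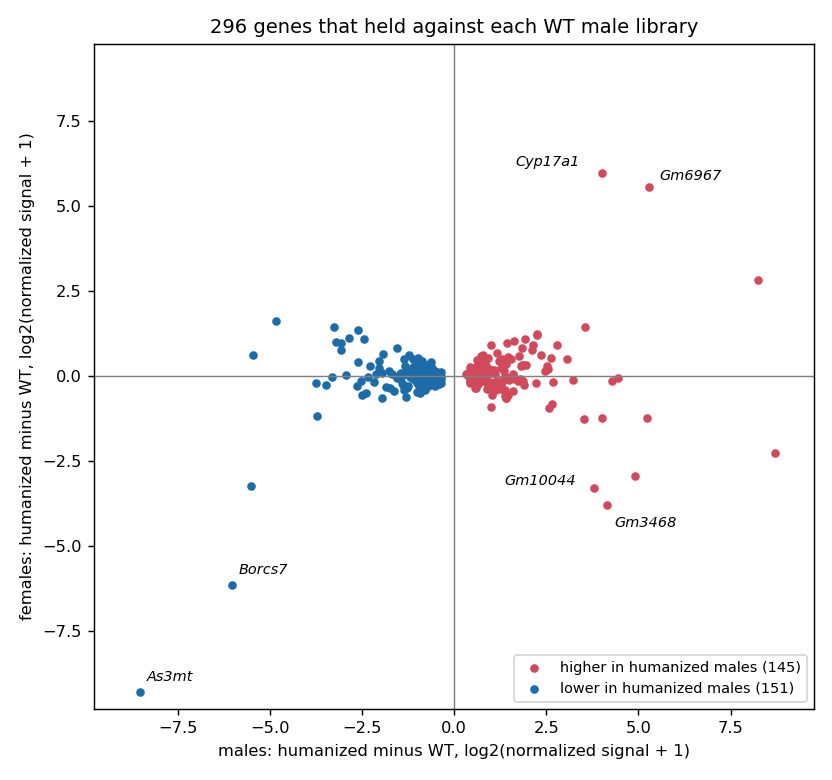
Difference humanized minus WT on the log2(normalized signal + 1) scale in males (x axis) and in females (y axis) for the 296 genes that held against each WT male library. Points are genes, 145 higher and 151 lower in humanized males. The points of each direction are spread over both sides of 0 on the female axis, with the same sign as in males for 76 of the lower and 78 of the higher genes.

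The lower genes that the naming rule took first were spread over signalling and secreted proteins. Stim1, the calcium sensor of the endoplasmic reticulum that opens store-operated channels, was at 22444 and 19120.2 in WT males and 7561, 10626 and 9021 in humanized males (−1.21 ± 0.15, limma adjusted p = 0.0624). All 6 female libraries, at 9225 to 11411, lay close to the humanized males. Il17rb, a receptor subunit for interleukin 25, was at 488 and 364 against 93.2, 142 and 148. Hpgd, which breaks down prostaglandins, was at 5982 and 4981 against 3240.5, 2596 and 2309.7. For these genes the groups of males did not overlap, whether WT male replicate 4 or 5 was used.

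C4a and Muc2 had lower signal. C4a encodes a form of complement component 4 and is nearly identical to C4b, so its reads could be divided between the copies and the value is uncertain. It was at 274 and 528 in WT males and at 56.0, 26.0 and 25.7 in humanized males (limma adjusted p = 0.0695). Muc2, a secreted mucin of the gut, was at 326 and 473 in WT males and at 31.3, 89.1 and 34.2 in humanized males (limma adjusted p = 0.174). S100a9, a calcium-binding protein of neutrophils, was at 93.5 and 91.8 against 7.31, 5.99 and 15.3. Of 13 tested neutrophil and mast cell markers it alone held against each WT male, where 1.7% of all genes held. Above 0 lay 7 of the 13.

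Metal-binding and stress genes were among the lower ones. Mt1 and Mt2 encode metallothioneins, small cysteine-rich proteins that bind zinc, cadmium and other metals and are induced by them through metal response elements. Mt1 was at 36287 and 14458 in WT males and at 6185, 4663 and 4609.9 in humanized males (−2.17 ± 0.35, limma adjusted p = 0.174). All 6 female libraries, at 3386 to 5928, lay near the humanized males and below both WT males. Mt2 was at 30158 and 9859 in WT males and at 4557, 1905 and 2477 in humanized males (−2.63 ± 0.56, limma adjusted p = 0.249). In both genes WT male replicate 4 was the highest library, with replicate 5, the one rich in Alb, next. Against WT male replicate 4 alone the Mt1 difference was −2.83 and passed the threshold (limma adjusted p = 0.030), and against replicate 5 alone it was −1.50.

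The promoters of these metallothionein genes are shown because both genes held and carry the element through which metals act on them. They run from 250 bases before to 50 bases after the start and come from RefSeq (GRCm38.p6), with Mt1 at chr8:94178839-94179138 and Mt2 at chr8:94172368-94172667, both on the plus strand. Capitals mark matches on either strand to TGCACNC or TGCGCNC, the core letters of a metal response element, and no match overlaps another.
Mt1: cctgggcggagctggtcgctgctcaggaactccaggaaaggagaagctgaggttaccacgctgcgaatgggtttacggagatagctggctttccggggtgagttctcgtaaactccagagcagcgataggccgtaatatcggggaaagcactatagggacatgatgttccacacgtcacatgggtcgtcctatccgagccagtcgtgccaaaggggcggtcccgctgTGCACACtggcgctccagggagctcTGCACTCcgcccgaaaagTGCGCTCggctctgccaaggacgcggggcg
Mt2: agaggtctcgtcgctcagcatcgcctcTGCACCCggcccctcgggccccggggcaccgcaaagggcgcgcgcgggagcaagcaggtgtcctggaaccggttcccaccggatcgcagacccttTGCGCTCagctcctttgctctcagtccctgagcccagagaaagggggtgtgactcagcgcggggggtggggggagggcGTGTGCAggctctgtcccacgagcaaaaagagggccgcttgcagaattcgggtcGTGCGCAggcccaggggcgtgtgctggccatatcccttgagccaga
The Mt1 stretch holds 3 matches and that of Mt2 4. Over all 32851 promoters of this length, 12.6% hold TGCACNC and 15.4% hold TGCGCNC, so a single match is common, and a match is not a measured site.

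The metal and heat shock list lay on both sides of 0. Of 18 tested, 8 lay above 0 and 10 below, with a median of −0.021. That median was 0.13 against WT male replicate 5 alone and −0.12 against replicate 4 alone. Of the 18 genes 3 held against each WT male, all lower, where 0.868% of all genes held on that side. The third of these was Hspb1, a small heat shock protein that guards actin filaments, at 18119 and 17976 in WT males and 11509, 12898 and 10536 in humanized males. Gpx1, which reduces hydrogen peroxide with glutathione, was at 96753 and 117179.8 in WT males and 58934, 63166 and 54254 in humanized males (−0.86 ± 0.15, limma adjusted p = 0.174). Of 27 tested NRF2 and glutathione genes it alone held against each WT male, where 1.7% of all genes held. The list median was −0.050.

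Sesn2, Arrdc2 and Trp53inp1 were among the lower genes too. Sesn2, a stress-induced brake on mTORC1, was at 13374 and 9260.4 in WT males and 5055, 4276 and 4743 in humanized males. Arrdc2, an arrestin-domain protein of the family of Txnip, was at 4098 and 4127 against 1098, 1787 and 1556. Trp53inp1, a p53 target that acts in autophagy, was at 3842 and 4921 against 1838, 1719.7 and 1920.3. The WT and humanized males did not overlap in any of the 3. Of 18 p53 targets 9 lay above 0 and 9 below with a median of 0.0087. Of 25 genes of endoplasmic reticulum stress and the integrated stress response 7 lay above 0 and 18 below, with a median of −0.11.

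Among genes of fatty acid use, Pdk4, Vnn1 and Lpin1 had lower signal in humanized males. Pdk4, the kinase that shuts pyruvate dehydrogenase, was at 37124 and 49465 in WT males and 9482, 7623 and 5897 in humanized males (−2.51 ± 0.44, limma adjusted p = 0.174). Vnn1, a pantetheinase known as a PPARA target in liver, was at 1858 and 2199.7 against 278, 456 and 496. Lpin1, a phosphatidate phosphatase that also acts as a coactivator of fatty acid oxidation genes, was at 48315 and 62018 against 23493, 32792 and 36019. In each the WT males were above every humanized male. Of 30 tested fatty acid oxidation and PPARA target genes, 24 lay below 0 and 6 above, against 48.9% of all genes below 0. The median was however −0.18. The 2 members that held against each WT male were Pdk4 and Vnn1, where 0.868% of all genes held on the lower side. In females 26 of the 30 lay below 0, with a median of −0.30, but the female share of all genes below 0 is not given here. Acadm, an enzyme of the oxidation spiral, overlapped, at 41324 and 32873 against 27409, 31388 and 32969.8.

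Fkbp5 and Tsc22d3, both induced by the glucocorticoid receptor, were on the same side. Fkbp5 was at 28508 and 25269.7 in WT males and 3187, 10135 and 10758 in humanized males (−1.93 ± 0.52, limma adjusted p = 0.347). Tsc22d3, also known as Gilz, was at 25541 and 27136 against 13744, 18990.0 and 16908. In both, humanized male replicate 4 was the lowest library and the groups did not overlap. The receptor gene itself, Nr3c1, differed by 0.22 ± 0.12 in the other direction. Of the 22 tested steroid receptor and steroid enzyme genes 14 lay below 0, with a median of −0.28.

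Triglyceride and glucose handling genes made up part of the higher set. Dgat2, which adds the last fatty acid to make triglyceride, was at 120814 and 90762 in WT males and 287439.6, 261530.2 and 286336 in humanized males (1.41 ± 0.37, limma adjusted p = 0.335). Pfkfb3, which drives glycolysis through fructose 2,6-bisphosphate, was at 37564 and 21761 against 70525, 105376 and 89179. Adora1, the adenosine receptor that restrains lipolysis, was at 8882 and 8482 against 14753, 17483 and 18864. In all 3 the humanized males lay above both WT males and inside or near the range of the females. For Adora1 that female range, from 8229 to 18863, held both WT males as well. Of 32 tested fatty acid and triglyceride synthesis genes, 23 lay above 0, with a median of 0.26. That median was 0.50 against WT male replicate 5 alone and 0.038 against replicate 4 alone. In this list Dgat2 held on the higher side and Lpin1, given above, held on the lower side. Over all genes, 0.834% held on the higher side and 0.868% on the lower. Fasn, the fatty acid synthase, was at 657014 and 317687 in WT males and at 364826, 1124869 and 906772 in humanized males, so the groups overlapped.

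Cholesterol synthesis genes lay mostly on 1 side. Of 24 tested genes of the pathway and of SREBP2 control, 22 lay above 0 against 51.1% of all genes, and in 17 the 3 humanized males were above both WT males, against 11.2% of all genes. The median difference was 0.53, or 0.64 and 0.44 with only WT male replicate 5 or 4, and the median of all genes was 0.0086. None was called. Dhcr7, the last enzyme of the pathway, was at 682 and 968 in WT males and 2975, 1349 and 1402 in humanized males (1.13 ± 0.32, limma adjusted p = 0.384). Insig1, which holds SREBP precursors in the endoplasmic reticulum, was at 11499 and 9701 against 32968, 14265 and 19573. In both of these genes humanized male replicate 4 was the highest male library, and the summed signal of the list was 78037 and 69133 in WT males against 152873, 95539 and 101773 in humanized males. The part of that library's low Adipoq in the list's difference was not tested. Without WT male replicate 5 and humanized male replicate 4 together, the list median was 0.24. In females 20 of the 24 lay below 0, with a median of −0.30, and no female share of all genes is given beside it.

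Bhlhe40 and Bhlhe41, related repressors of the circadian clock that bind E-boxes, both had higher signal. Bhlhe40 was at 1185 and 1701 in WT males and 3551, 6596 and 5141 in humanized males (1.80 ± 0.38, limma adjusted p = 0.251). Bhlhe41 was at 1128 and 1189 against 2730.2, 5012 and 3126 (1.59 ± 0.30, limma adjusted p = 0.194). All humanized males lay above both WT males, and the females, at 1625 to 2863 for Bhlhe41, lay above both WT males as well. The clock list as a whole had 10 of 19 genes above 0 and a median of 0.054, or 0.24 and −0.039 against WT male replicate 5 or 4 alone. Dbp, an output gene with a strong daily rhythm, was at 1597 and 4486 in WT males and at 4041, 17008 and 12532 in humanized males, so the groups overlapped. The hour at which tissue was taken is not given in the sources used here, and its part in the clock gene values was not tested.

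The Bhlhe41 promoter is shown because clock factors are known to act on this gene through E-boxes, and capitals mark the E-box letters CACGTG. It lies at chr6:145865371-145865670 on the minus strand (RefSeq, GRCm38.p6) and is written in the direction of the gene.
Bhlhe41: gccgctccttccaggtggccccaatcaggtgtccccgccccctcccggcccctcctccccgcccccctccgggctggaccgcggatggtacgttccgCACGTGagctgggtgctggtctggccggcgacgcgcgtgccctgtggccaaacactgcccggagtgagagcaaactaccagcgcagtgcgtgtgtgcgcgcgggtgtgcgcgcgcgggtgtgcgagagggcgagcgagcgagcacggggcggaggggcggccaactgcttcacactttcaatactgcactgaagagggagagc
It holds 1 match, and 7.15% of all promoters of this length hold at least 1, counted on both strands. A match is not a measured site.

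Matrix and connective tissue genes lay mostly above 0. Cilp, a secreted matrix protein of cartilage and fibrous tissue, was at 2519 and 1091 in WT males and 5960.5, 4755 and 8775 in humanized males (1.92 ± 0.35, limma adjusted p = 0.187). Mfap2, a protein of elastic microfibrils, was at 132 and 224 against 861, 461 and 505. Lum, a collagen-binding proteoglycan, was at 2746 and 2571 against 15399, 5848 and 9429. Fn1, fibronectin, was at 48238 and 45071 against 101158, 72576 and 82749.7. In each the humanized males were above both WT males, with replicate 4 the highest of them except for Cilp. Cilp and Mfap2 are on no list. Of 34 listed matrix and remodelling genes 27 lay above 0, with a median of 0.42. Fn1 held on the higher side and Thbs1 on the lower, where 0.834% and 0.868% of all genes held. Of 21 fibroblast and progenitor markers 18 lay above 0, with a median of 0.57. In females the lean was on the same side. There 20 of the 21 fibroblast markers lay above 0 (median 0.55), as did 24 of the 34 matrix genes (median 0.28). These female counts have no share of all genes beside them. The fibroblast marker sum was 453591 and 352598 in WT males against 812807, 511305 and 677425 in humanized males, and its part in the matrix values was not tested. The matrix median dropped to 0.10 without humanized male replicate 4.

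Thbs1 went the other way. This thrombospondin, which activates TGF-beta and blocks vessel growth, was at 63344 and 52875 in WT males and 17704, 11019 and 14191 in humanized males (−2.04 ± 0.40, limma adjusted p = 0.194), with no overlap. Its relative Thbs2 was at 30858 and 35632 against 6516, 20519 and 12198, also without overlap.

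The other higher genes taken by the rule had varied roles. Zbtb7c, a zinc finger regulator, was at 753 and 560.2 in WT males and at 1622, 1415 and 1733 in humanized males (1.29 ± 0.21, limma adjusted p = 0.174). Nrcam, a neuronal cell adhesion protein, was at 36.3 and 66.5 against 468, 184 and 244. Napepld, which releases N-acylethanolamines such as anandamide from membrane lipid, was at 871 and 977 against 2373, 2775 and 1995. These groups did not overlap. Htr2a, a serotonin receptor, was at 16.1 and 20.5 against 63.4, 59.2 and 79.9. Myom3, a protein of the striated muscle M-band, was at 99.4 and 144 against 275, 385 and 506. Nrip2, a nuclear receptor interacting protein, was at 361 and 205 against 988, 740.3 and 774. Ggn, known from the testis, was at 54.3 and 86.1 against 235, 158 and 174. The predicted gene Gm18336 was at 8.03 and 4.09 against 57.7, 34.1 and 37.5. Each of these genes was higher in all humanized males than in either WT male, with limma adjusted p from 0.174 to 0.216 over the 11 higher genes other than Gm6967. Myom3 was measured beside a skeletal muscle marker set whose sum ran from 4809.6 to 35046 over the male libraries, with WT male replicate 4 the highest male, and from 2692 to 55876 over the females. Of the 16 markers in this set 13 lay above 0, and 5 had every humanized male above both WT males, against 11.2% of all genes. Their median was 2.28, or 1.29 and 3.01 against WT male replicate 5 or 4 alone, and 0.16 in females. The fast myosin Myh2 of this set was at 22.4 and 29.4 in WT males against 206, 468 and 158. The part of muscle RNA in the Myom3 value was not tested.

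**Figure D3:**
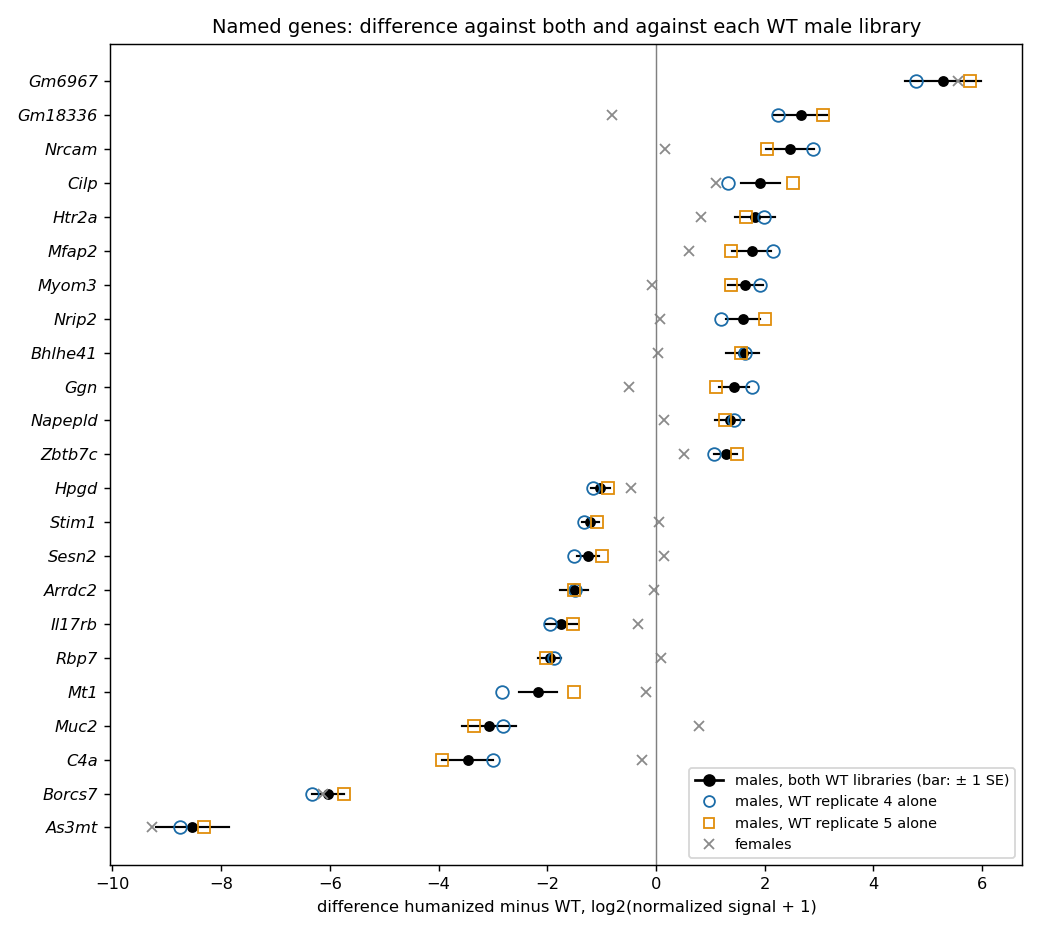
Difference humanized minus WT (log2(normalized signal + 1)) of the 11 lower and 12 higher genes described. Filled points with bars are males against both WT libraries ± 1 SE, open circles and squares are males against WT replicate 4 or 5 alone, and crosses are females. Each male estimate keeps its side of 0 whichever WT library is used, and outside As3mt, Borcs7 and Gm6967 the crosses lie nearer 0 or on the other side.

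Markers of other cells differed between single libraries. Of all genes tested, 12.1% had every humanized male below both WT males, the share beside which the counts without overlap here stand. All 30 hepatocyte markers lay below 0, and 4 did not overlap, close to the share of all genes. Their median was −2.23. This rested on WT male replicate 5: against it alone the median was −6.13, and against replicate 4 alone it was 1.54, in the other direction. The summed hepatocyte signal was 366084 and 824451 in WT males and 139524, 391207 and 346245 in humanized males. That was 0.406% and 0.992% of the total in WT males and 0.167%, 0.444% and 0.395% in humanized males. The mean log2(signal + 1) of the markers was 6.47 and 13.34 in WT males and 6.58, 9.11 and 8.08 in humanized males. The sum did not follow this mean, so it is not read as a share of liver RNA. None of the 30 held against each WT male. All 8 red blood cell genes lay below 0 with a median of −2.24, and 5 did not overlap. Their sum was 419944 in WT male replicate 4 and 2160121.7 in replicate 5, against 119121 to 309994 in humanized males, and haemoglobin genes have near-identical copies. Of 7 long noncoding RNAs listed as marks of nuclear RNA and library quality, 6 lay below 0 and 3 did not overlap, with a median of −0.51, or −0.45 and −0.27 against WT male replicate 5 or 4 alone. Their sum was 312902 and 454617 in WT males against 204945, 275784 and 265917 in humanized males, and its part in the results was not tested. Of 28 epididymis and testis genes only 3 passed the filter on low signal, with sums of 273 to 1292 over the male libraries.

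Of the listed immune and mesothelial markers S100a9 was the only 1 that held. Mcpt2, a mast cell protease that is on no list, also held, on the higher side, and was listed at 0 in both WT males. The immunoglobulin heavy chain gene Ighg2b, on no list either, held on the lower side. It was at 70.2 and 152.5 in WT males and at 1.90, 0 and 3.52 in humanized males. Other immune genes outside the lists are not described here. Of 29 macrophage markers 23 lay above 0, and their median of 0.65 came to 0.056 once humanized male replicate 4 was dropped. Of 22 T and NK cell markers 19 lay above 0, with a median of 0.55, but −0.29 against WT male replicate 5 alone. Of 16 mesothelial markers 13 lay below 0, with a median of −0.78 and 0.16 without humanized male replicate 4. Of 29 cell cycle genes all lay above 0, with a median of 0.56. They were highest in humanized male replicate 4, where they summed to 45648 against 13014 to 17086 in the other 4, and without it the median was −0.048.

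**Figure D4:**
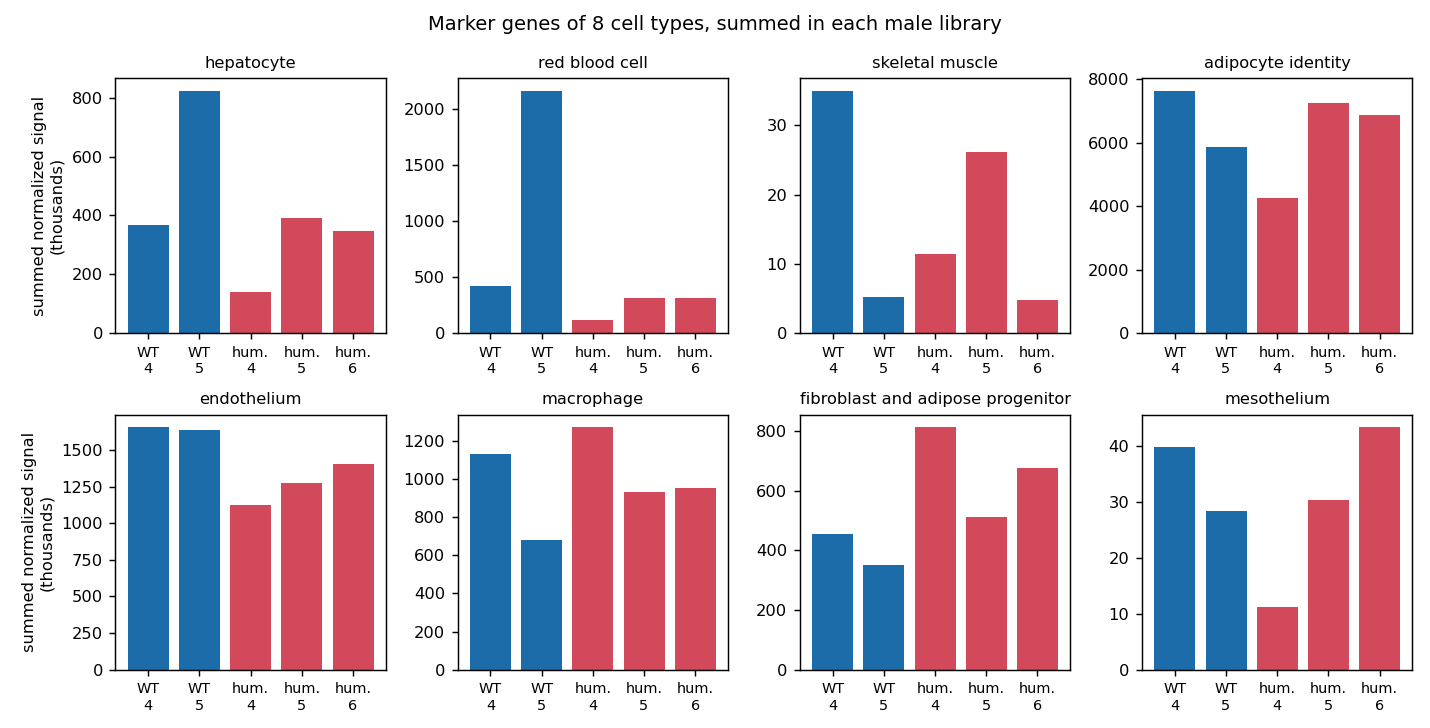
Summed normalized signal of the marker genes of 8 cell types in the 2 WT male (blue) and 3 humanized male (red) libraries. Bars are single libraries. WT male replicate 5 stands out for hepatocyte and red blood cell genes, and humanized male replicate 4 has the lowest adipocyte and the highest macrophage and fibroblast sums.

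Other lists linked to arsenic or to fat function had few or no members that held, where 1.7% of all genes tested did. The adipocyte identity list had 13 of 30 genes above 0 and a median of −0.11, with Dgat2 its only member that held. That median was 0.098 against WT male replicate 5 alone and −0.21 against replicate 4 alone. The insulin signalling and glucose uptake list had 24 of 33 above 0 but a median of 0.083, with Pfkfb3 and Pdk4 as the members that held. The methionine and one-carbon cycle, which supplies the methyl groups for arsenic, had 13 of 28 above 0, a median of −0.062 and no member that held. Its median was 0.030 and 0.097 against WT male replicate 5 or 4 alone. The arsenic uptake and efflux transporters had 6 of 17 above 0 and none that held, and their median of −0.21 became 0.24 against WT male replicate 4 alone. The 31 nuclear respiratory chain genes had a median of −0.055, or 0.20 and −0.27 against WT male replicate 5 or 4 alone. No gene among them was free of overlap, against 23.3% of all genes that were. The 13 mitochondrially encoded genes all lay above 0 with a median of 0.28, but at −0.21 against WT male replicate 4 alone. A small median here does not show that a pathway was the same in both genotypes.

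**Figure D5:**
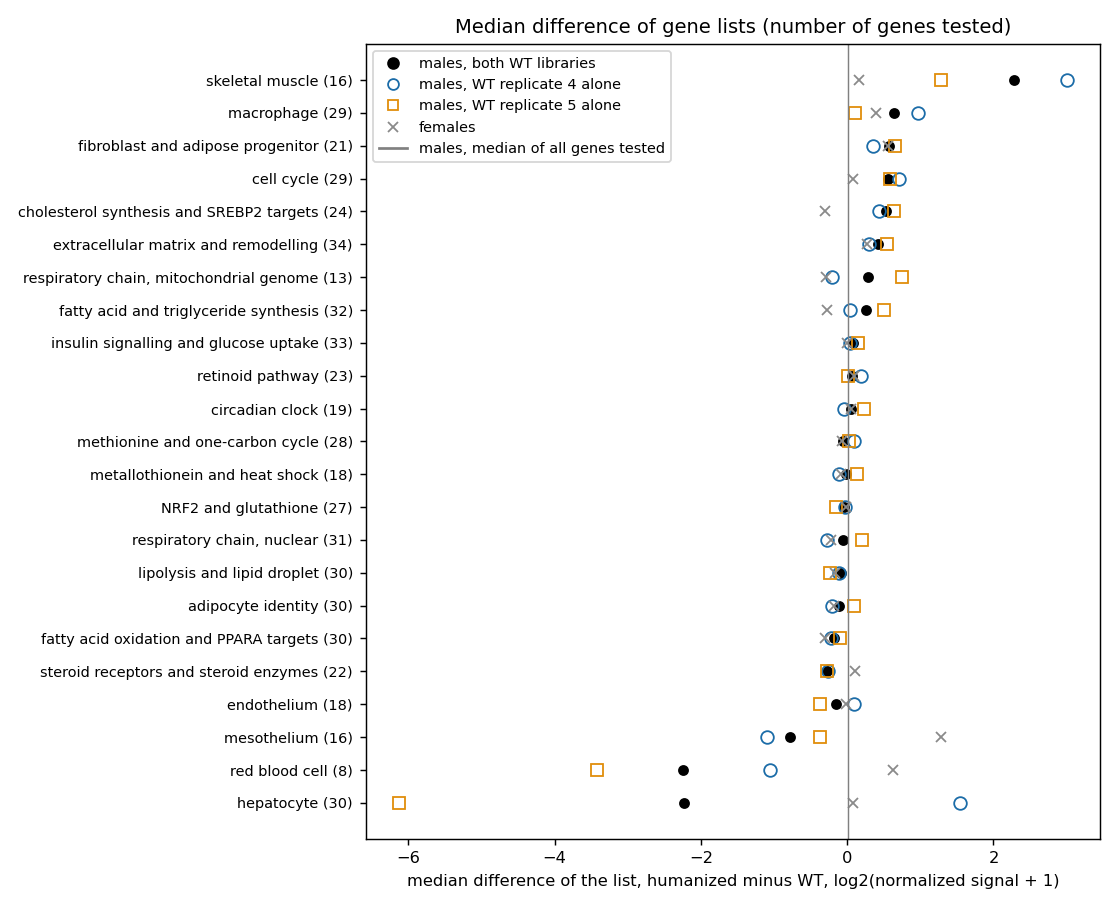
Median difference humanized minus WT (log2(normalized signal + 1)) of 23 gene lists, with the number of genes tested in brackets. Filled points are males against both WT libraries, open circles and squares males against WT replicate 4 or 5 alone, crosses females, and the grey line the male median of all genes (0.0086). The hepatocyte, endothelium, adipocyte identity, metallothionein and heat shock, circadian clock and both respiratory chain medians change side with the WT library used. Cholesterol synthesis, matrix, cell cycle and fibroblast medians are among those that stay above 0 with either WT library.

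Whether the male difference differed from the female one was tested in the same fit. No gene passed a limma adjusted p under 0.05 for genotype by sex, and 1183 (6.8%) had an unadjusted limma p under 0.05. Leaving out WT male replicate 4 gave 6 calls, leaving out humanized male replicate 4 gave 1, and leaving out WT female replicate 5 gave 3, this being the library with Y-linked signal. Rbp7 (−2.05), Stim1 (−1.25), Mafk (−1.16), Hspb1 (−1.06) and Tead4 (−1.85) had the smallest p below 0 among the genes that held in males, at limma adjusted p from 0.209 to 0.32. Mafk, a small Maf protein that pairs with NRF2, was at 9550.5 and 10238 in WT males and 5679.6, 5986 and 5289 in humanized males, while females lay between 4108 and 6379.7. Tead4, a transcription factor of the Hippo pathway, was at 1186 and 804 against 338, 465 and 453. Above 0 were the predicted genes Gm26917 (1.90), Gm10044, Gm3468 and Gm18336 and the lipogenic regulator Mid1ip1 (0.90). Gm26917 was at 5239 and 7452 in WT males and 12228, 12058 and 12952 in humanized males, and at 14882, 10679 and 15330.4 in WT females and 7782, 6858 and 6924 in humanized females, so the groups were apart in both sexes in opposite order. In As3mt and Borcs7 the male and female differences were −8.53 and −9.27, and −6.04 and −6.13.

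Liver values of the same groups, from a table that was normalized separately, set the fat genes in context, with 3 libraries per group. Rbp7 was at 2.21 ± 1.94 (SD, n = 3) in WT male liver and 2.68 ± 1.52 (SD, n = 3) in humanized male liver, close to 0 in both. Mt1 was at 34884 ± 20680.3 (SD, n = 3) in WT males and 4740.0 ± 3760.0 (SD, n = 3) in humanized males, and Mt2 at 16713 ± 10054 and 2251 ± 1852, so the metallothioneins were lower on average in humanized male liver also. C4a was at 13301 ± 5448 in WT and 3192 ± 1607 in humanized male liver, with the same limit on its copies. Stim1, at 4025 ± 645 and 3703 ± 413, and Dgat2, at 74235 ± 17364 and 81050.0 ± 15616, differed by less than their SD. These liver differences were not tested here.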

How the data were processed

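Gonadal fat mRNA values were taken from the table of normalized read counts that the authors deposited (signal, scaled with DESeq2 per the submitters' processing notes, which also name STAR, Salmon, limma and the mm9 build without versions). These values are not whole reads, so no count model was used. Of 48440 gene IDs, 48058 matched a name in the RefSeq and gene name tables. Genes with a mean signal of at least 10 over the 11 fat libraries (17394) were fitted on the log2(signal + 1) scale in 1 model of 4 groups with 7 residual degrees of freedom, using limma 3.58.1 with a mean trend in R 4.3.3. A call was a Benjamini-Hochberg adjusted p under 0.05 over all genes tested. The fitting script was tested on simulated data.

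Named genes were As3mt and Borcs7, the calls, up to 12 genes a direction of smallest p among those that held with a difference of at least 1, list members that held or otherwise had the smallest p, and the 5 genes a direction of smallest genotype by sex p among those that held. Cnnm2, Aldh1a1, Acadm, Nr3c1, Fasn, Dhcr7, Insig1, Dbp, Thbs2, Mcpt2, Ighg2b and Gm10259 fall outside this rule and were chosen after their values were seen. Some genes that the rule names are not reported here. The members and the 42 gene lists (900 genes, 898 matched) were chosen with earlier results of these data known. The labels mark replicates as separate samples without naming animals or litters, so p-values measure the spread between these samples. The small RNA tables were not used here. Alternatives were other pseudocounts, filters, scalings, library weights, a hepatocyte covariate, the replicate number as a block, males only and leaving out each library. Leaving out WT male replicate 5 and humanized male replicate 4 together was added after seeing the data.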

Additional observations from a re-analysis of the deposited data

Results flagged for a closer look

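In 13 of the named genes the males of the genotypes did not overlap in 1 direction and the females did not overlap in the other. Of all 17394 genes tested 181 (1.04%) did this, and of the 296 that held in males 19 (6.42%), a share that describes genes chosen on the male values. The genotype by sex difference, male minus female on the log2 scale, was tested with limma, and none reached an adjusted p under 0.05.

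Among genes lower in humanized males it was −3.86 for Muc2 (limma adjusted p = 0.402), −1.06 for Hspb1 (limma adjusted p = 0.32), −1.16 for Mafk (limma adjusted p = 0.209) and −1.85 for Tead4 (limma adjusted p = 0.32). Muc2 was at 36.5, 30.9 and 46.4 in WT females and at 47.1, 76.7 and 76.5 in humanized females.

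Among genes higher in humanized males it was 3.48 for Gm18336, 1.94 for Ggn, 7.09 for Gm10044 and 7.94 for Gm3468 (limma adjusted p = 0.44 for each). It was 1.90 for Gm26917 (limma adjusted p = 0.209) and 0.90 for Mid1ip1 (limma adjusted p = 0.407). Gm10044 was at 0.577 and 0.776 in WT males and 13.7, 11.4 and 69.4 in humanized males, but at 38.9, 8.23 and 13.4 in WT females and 0, 2.05 and 0.87 in humanized females. Gm3468 took the same order, and both are predicted models with near copies, so their values are uncertain.

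The difference was 1.80 for Ppargc1b, a coactivator of mitochondrial genes (limma adjusted p = 0.485), 1.38 for the interferon-induced chemokine Cxcl9 (limma adjusted p = 0.597) and 2.66 for the T cell gene Cd8b1 (limma adjusted p = 0.676). Ppargc1b was at 475 and 293 in WT males and 529.7, 675 and 628 in humanized males, and at 1328, 776 and 920.4 in WT females and 449.7, 517 and 415 in humanized females.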

How the results depend on the processing

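Borcs7 was called under all 21 alternatives, As3mt under 20 and Rbp7 under 9. The 3 calls became 8 with males only (4 higher) and ranged from 2 to 8 when 1 library was left out. Genotype by sex calls ranged from 0 to 6 in those fits. The 296 genes that held became 103 with the hepatocyte covariate and 471 with library weights, and 233 to 393 when 1 library was left out. This count could not be given without a WT male. Same-numbered libraries correlated at 0.0068 and 0.11 between males and at 0.17 to 0.19 between females, so not every pair passed 0.1 and the numbers were not used as pairs. With the replicate block there were 3 calls, 0 for genotype by sex and 246 genes that held. The block took the call from Rbp7 (limma adjusted p = 0.158). Without WT male replicate 5 and humanized male replicate 4 together there were 3 calls.

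Some named genes changed side. Apoa1 was at 0.56 with the hepatocyte covariate, and Adipoq at 0.083 with library weights and 0.15 without humanized male replicate 4. Without WT male replicate 5, mt-Nd2 was at −0.089, Saa1 at 0.099, Alb at 1.10 and Apoa1 at 2.43. Cpb1 was at −0.13 without humanized male replicate 5 and Star at −0.14 without replicate 6. With both doubted libraries out, Saa1 was at 0.20, Adipoq at 0.19, Alb at 2.04 and Apoa1 at 3.49. Over the fits that left out 1 library, the far end was 1.35 for Star, 1.71 for Cpb1, 0.88 for mt-Nd2, −6.44 for Saa1, −0.39 for Adipoq, −5.88 for Alb and −6.53 for Apoa1. The cause was not tested. Depth is unknown, and with 2 WT males differences within their spread were not detectable.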

Other observations

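Some further genes gave values worth recording. Shmt1, which loads serine carbon onto folate, was at 647 and 1036 in WT males and 307, 522 and 451 in humanized males (−0.97 ± 0.34, limma adjusted p = 0.469). WT and humanized males did not overlap, but the gene did not hold against each WT male. Among secreted regulators, Nampt, an enzyme of NAD synthesis, was at 13024 and 10388 against 6141, 8658 and 8886. The thermogenic fat gene Kcnk3, a potassium channel, was at 4074 and 3809 against 6535, 8354 and 6947. Ccr2, the receptor of recruited monocytes, was at 1389.7 and 2333 against 9429.8, 2554 and 4567, and was highest in humanized male replicate 4. Pmp22, a myelin protein also found in fibroblasts, held at 9102 and 6573 against 12789, 12656 and 17448.

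The acute phase genes Saa1 and Saa2 were high in 1 male library. Saa1 was at 7.38 in WT male replicate 4 and 778 in replicate 5, the library rich in Alb, against 6.76, 7.36 and 10.1 in humanized males.

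Mcpt2, a mast cell protease, was listed at 0 in both WT males and was at 811, 176 and 509 in humanized males (limma adjusted p = 0.217), so it met the rule for holding against each WT male. In WT females it was at 105, 0 and 0, and it was listed at 0 in all 3 humanized females. The predicted gene Gm10259 was listed at 0 in both WT males and was at 316, 305 and 290.2 in humanized males, but females of both genotypes held a mix of values near these and of 0.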
